A study of Homo sapiens with 8 samples.

Results

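Transcripts of glycolysis and of the response to low oxygen were followed in 8 RNA-seq libraries of human cell lines in which eIF2A had been knocked down or not. The 33 genes were taken from a list of names covering glucose uptake, each glycolytic step, lactate and pyruvate handling and hypoxia-inducible genes. All 33 had counts enough to be tested, among 14565 genes tested and 19305 accessions listed.

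Polyadenylated RNA was sequenced in 4 groups of 2 libraries. HEK293T, a line derived from human embryonic kidney, carried an siRNA against eIF2A or a control siRNA, and all 4 of its libraries came from cells given sodium arsenite, an oxidative stressor. The H9 line of human embryonic stem cells carried an shRNA against eIF2A or a control shRNA, with no arsenite named in its labels. eIF2A is an initiation factor that can deliver initiator tRNA to the ribosome, and the series asks about protein synthesis that resists stress. Each target was hit with 1 reagent as far as the labels say, no siRNA or shRNA sequence is given in the sources used here, and the 2 libraries of a group are numbered as sets without a statement that they came from separate cultures. The p-values below therefore measure the spread between these libraries only, which may be technical.

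Glycolysis splits glucose into pyruvate through an investment phase, which spends ATP, and a payoff phase, which returns it. Pyruvate then enters mitochondria or is reduced to lactate and exported. Many of these genes are targets of hypoxia-inducible factor (HIF), a transcription factor whose alpha subunit is hydroxylated by the EGLN enzymes and then destroyed when oxygen is present. Pluripotent stem cells are known for a high rate of glycolysis.

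Library totals ranged from 21837052 to 32318668 gene counts. EIF2A itself stood at 5.58 and 5.98 CPM (counts scaled to the library total) with eIF2A siRNA against 17.5 and 18.3 CPM with control siRNA, and at 5.03 and 4.67 CPM with eIF2A shRNA against 15.8 and 14.8 CPM with control shRNA. That left 32.2% of the control level in HEK293T and 31.7% in H9. Reads assigned to no gene made up 14.976 and 14.953% with eIF2A siRNA, 15.589 and 17.68% with control siRNA, 20.836 and 20.631% with eIF2A shRNA, and 18.84 and 18.392% with control shRNA. The summed level of 7 pluripotency markers was 5690 and 5770 CPM in H9 with eIF2A shRNA and 5840 and 5850 CPM with control shRNA, and NANOG and L1TD1 had 0 counts in HEK293T. In H9 the sum of 6 neural markers was 180 and 181 CPM with eIF2A shRNA against 358 and 375 CPM with control shRNA, nearly all of it from TUBB3, and that of 6 mesoderm and endoderm markers was 73.4 and 68.5 CPM against 35 and 35.7 CPM, nearly all of it from KDR. Among pluripotency markers POU5F1 averaged 128 CPM with eIF2A shRNA and 179 CPM with control shRNA, and NANOG 49 and 51.3 CPM. The lists went both ways in H9, with calls made as defined below (background 37% higher and 34.3% lower). Of 7 pluripotency markers tested, 3 were called higher and 3 lower with eIF2A shRNA. Of 6 neural markers 2 were called higher and 2 lower, and of 4 tested mesoderm and endoderm markers 2 higher and 1 lower. The defining markers PAX6, NEUROG2, SOX17 and TBXT averaged under 0.3 CPM in both H9 groups. The part of these markers in the results below was not tested.

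The HIF complex binds the core motif ACGTG or GCGTG, and several of the 33 genes have such cores just upstream of a start site. Of 29 genes with an entry in a RefSeq promoter table (GRCh38.p14), 24 (82.8%) had ACGTG or GCGTG on either strand in the 250 bases upstream of at least 1 start site, against 47.4% of all 27305 genes in the table. The stricter core ACGTG was found for 18 of 29 (62.1%), against 21.7% of all genes. Counted by promoter, since some genes have several, 32 of 56 (57.1%) held either core, against 43.2% of all 35116. The stricter core was held by 21 of the 56 (37.5%), against 18.5% of all promoters. The palindrome CACGTG counts once on each strand, and a match describes letters in a window and not binding. Shown here are 6 of these windows, chosen because the genes differed in direction in H9: LDHA, PDK1 and P4HA1 were higher, and PGK1, ALDOC and BNIP3 were lower, with eIF2A shRNA as measured. With the trend over GC content and length removed, as described below, LDHA was called lower and P4HA1 was not called. They are written 5′ to 3′ on the gene's strand, ending at the base before the start site, and the capitals mark the core motif on either strand.
LDHA: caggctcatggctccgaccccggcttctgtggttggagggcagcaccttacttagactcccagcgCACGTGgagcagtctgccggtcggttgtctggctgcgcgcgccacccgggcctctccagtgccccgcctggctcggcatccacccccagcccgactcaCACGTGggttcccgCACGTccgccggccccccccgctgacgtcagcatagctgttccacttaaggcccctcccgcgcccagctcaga
PDK1: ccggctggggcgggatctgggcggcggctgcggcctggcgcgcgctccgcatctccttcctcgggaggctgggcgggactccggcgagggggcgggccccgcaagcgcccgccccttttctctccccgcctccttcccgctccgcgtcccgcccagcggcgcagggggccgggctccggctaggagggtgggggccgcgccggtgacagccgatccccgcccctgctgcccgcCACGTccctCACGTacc
P4HA1: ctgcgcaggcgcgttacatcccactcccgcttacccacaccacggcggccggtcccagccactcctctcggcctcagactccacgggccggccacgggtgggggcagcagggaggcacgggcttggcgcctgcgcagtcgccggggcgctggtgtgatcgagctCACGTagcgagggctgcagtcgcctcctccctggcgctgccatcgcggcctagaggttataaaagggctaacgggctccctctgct
PGK1: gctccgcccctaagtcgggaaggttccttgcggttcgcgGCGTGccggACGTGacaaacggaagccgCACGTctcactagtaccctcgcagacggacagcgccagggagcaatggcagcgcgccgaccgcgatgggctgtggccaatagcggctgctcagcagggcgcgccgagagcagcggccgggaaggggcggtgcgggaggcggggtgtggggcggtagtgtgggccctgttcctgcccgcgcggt
ALDOC: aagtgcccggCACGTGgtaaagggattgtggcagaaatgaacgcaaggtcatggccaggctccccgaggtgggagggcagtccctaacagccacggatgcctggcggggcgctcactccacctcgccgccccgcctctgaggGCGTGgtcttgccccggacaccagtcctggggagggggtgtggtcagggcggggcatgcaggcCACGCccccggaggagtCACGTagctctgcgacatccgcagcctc
BNIP3: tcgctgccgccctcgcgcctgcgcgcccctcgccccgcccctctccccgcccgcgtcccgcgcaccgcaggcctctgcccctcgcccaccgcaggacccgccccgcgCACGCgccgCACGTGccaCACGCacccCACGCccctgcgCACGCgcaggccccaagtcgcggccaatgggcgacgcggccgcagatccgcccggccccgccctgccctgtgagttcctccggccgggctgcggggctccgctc
The windows lie at chr11:18394313-18394562 (plus strand) for LDHA, chr2:172555840-172556089 (plus) for PDK1, chr10:73096867-73097116 (minus) for P4HA1, chrX:78103998-78104247 (plus) for PGK1, chr17:28576896-28577145 (minus) for ALDOC and chr10:131981924-131982173 (minus) for BNIP3. LDHA had 5 matches, PDK1 2, P4HA1 1, PGK1 3, ALDOC 5 and BNIP3 6. Windows at another start site, not shown, had 1 match without ACGTG for LDHA and 0 for PDK1. Either core was present in 6 of 7 genes that were higher in H9 with eIF2A shRNA, in 17 of 20 that were lower and in 1 of 2 that were not called, among genes with an entry. In HEK293T the core was present in 1 of 3 genes that were higher with eIF2A siRNA, in 5 of 5 that were lower and in 18 of 21 that were not called.

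In arsenite-treated HEK293T cells, most of the 33 transcripts changed little. A gene was called at a Benjamini-Hochberg adjusted p under 0.05 from edgeR's quasi-likelihood test over all genes. With eIF2A siRNA, 5 genes were called higher (background 14.1% of all genes tested), 7 lower (background 14.7%) and 21 were not called, so that 36.4% were called against 28.7% of all genes tested. The median log2 fold change was -0.01, against 0 over all genes tested, and no called gene moved by 1.5-fold. SLC2A3, LDHA, LDHB, SLC16A1 and EGLN3 rose, and GPI, PFKL, PFKP, ENO2, VEGFA, ADM and NDRG1 fell. In bulk RNA a change in the share of cells that carry a transcript and a change in its level per cell cannot be told apart.

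In H9 cells most of the list moved. With eIF2A shRNA, 9 genes were called higher (background 37%), 20 lower (background 34.3%) and 4 were not called, so that 87.9% were called against 71.3% of all genes tested. The median log2 fold change was -0.26, against 0.02 over all genes tested, and 5 genes were higher and 6 lower by at least 1.5-fold. All 5 phosphofructokinase genes, all 3 aldolase and triose phosphate genes and 5 of 6 payoff genes fell, whereas SLC2A3, HK2, LDHA, LDHB, SLC16A1, PDK1, HIF1A, EGLN1 and P4HA1 rose.

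**Figure D1:**
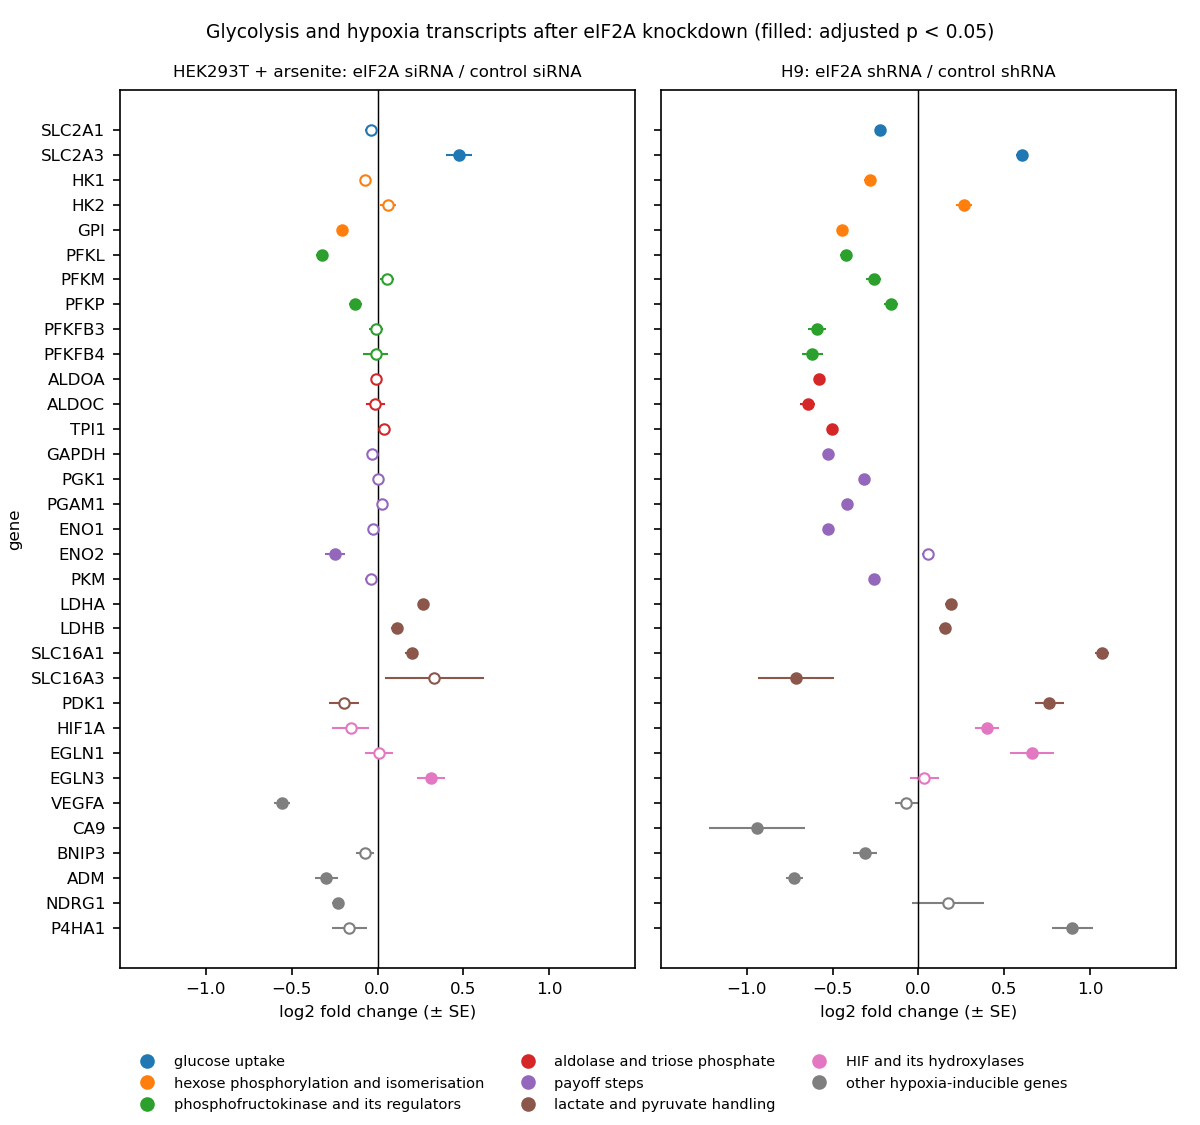
Log2 fold change (x axis, with SE bars) of each of the 33 genes (y axis, coloured by role) with eIF2A siRNA over control siRNA in arsenite-treated HEK293T cells (left) and with eIF2A shRNA over control shRNA in H9 cells (right), 2 libraries a group. Filled points had an adjusted p under 0.05, 12 of the genes on the left and 29 on the right. CA9 is left out on the left because its HEK293T controls had 0 counts.

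The H9 change varied with the base composition of the transcript. Over 14489 genes tested with a known transcript, Spearman's rho between the H9 fold change and GC content was -0.67, and between it and length 0.44. The HEK293T values were -0.10 and -0.09, and genes share libraries and are not independent points. Over the 33 genes the H9 values were -0.68 with GC content and 0.31 with length. Median log2 fold changes in H9 were 0.75 for 2792 genes of 40 to 45% GC and -0.32 for 2492 genes of 55 to 60% GC, and the median GC content was 54.4% for the 33 genes against 50.5% for all genes. With each library's trend over GC content and length removed before the fit, 5 of the 33 genes were called higher in H9 (against 9; background 22% of all genes in that fit) and 18 lower (against 20; background 27.3%), with a median of -0.18 against -0.01 for all genes. In HEK293T 4 were called higher (background 14.9%) and 8 lower (background 12.8%). Trend-removed values are given beside measured knockdown effects within each line where they change a call or a direction. Whether the trend comes from the cells or from the libraries was not tested.

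**Figure D2:**
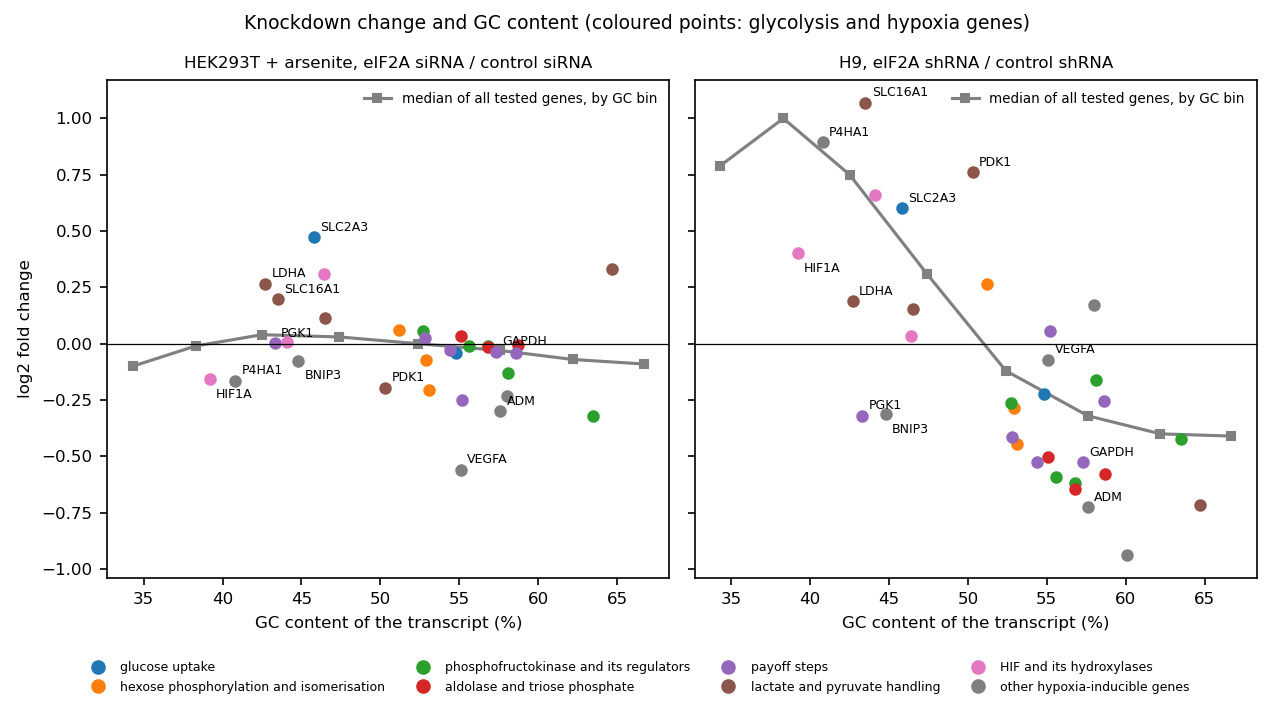
Log2 fold change on knockdown (y axis) against GC content of the transcript in percent (x axis) for the 33 genes (points coloured by role) in HEK293T (left, CA9 left out) and H9 (right), with the median of all genes tested in each GC bin as a grey line. The grey line falls with GC content in H9, with bin medians between 1 and -0.41, and stays between 0.04 and -0.1 in HEK293T; PGK1 and BNIP3 lie well below it in H9 and PDK1 above it.

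Glucose enters cells through SLC2A1 (GLUT1), the widely expressed transporter, and SLC2A3 (GLUT3), a transporter of high affinity. SLC2A3 stood at 11.6 and 12.2 CPM in HEK293T with eIF2A siRNA, against 8.15 and 8.89 CPM with control siRNA, and rose by 0.47 ± 0.076 (SE) on the log2 scale (adjusted p = 9e-06). In H9 it stood at 761 and 756 CPM with eIF2A shRNA, against 506 and 495 CPM with control shRNA, and rose by 0.60 ± 0.031 (adjusted p = 3.3e-18). The groups did not overlap in either line, and the share of all genes without overlap was not counted. With the trend removed the H9 value was 0.07 ± 0.029 (adjusted p = 0.053). The close paralog SLC2A14, with which SLC2A3 may share reads, averaged 7.91 CPM with eIF2A shRNA and 6.47 CPM with control shRNA. SLC2A1 stood at 98.8 and 101 CPM with eIF2A siRNA and 105 and 101 CPM with control siRNA (-0.04 ± 0.036, adjusted p = 0.46). In H9 it fell, to 519 and 516 CPM with eIF2A shRNA, against 604 and 604 CPM with control shRNA (-0.22 ± 0.031, adjusted p = 6.1e-08; -0.11 with the trend removed, adjusted p = 0.0014).

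Hexokinases trap glucose as glucose 6-phosphate, and GPI turns it into fructose 6-phosphate. HK1, the constitutive hexokinase, fell in H9 to 284 and 283 CPM with eIF2A shRNA, against 341 and 349 CPM with control shRNA (-0.28 ± 0.033, adjusted p = 2.4e-09). HK2, the inducible hexokinase, rose there to 93 and 89.5 CPM, against 76.6 and 75.3 CPM (0.27 ± 0.045, adjusted p = 2.7e-06), but its trend-removed value was 0.00 ± 0.044. In HEK293T, HK1 stood at 210 and 202 CPM with eIF2A siRNA and 211 and 221 CPM with control siRNA, and HK2 at 51.6 and 51.4 CPM and 50.5 and 48.5 CPM; neither was called (adjusted p = 0.12 and 0.39). GPI was lower in both lines. It stood at 1087 and 1128 CPM with eIF2A siRNA against 1302 and 1254 CPM with control siRNA (-0.21 ± 0.03, adjusted p = 1.5e-06), and at 668 and 667 CPM with eIF2A shRNA against 902 and 917 CPM with control shRNA (-0.45 ± 0.031, adjusted p = 5.3e-15).

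Phosphofructokinase commits the sugar to glycolysis, and PFKFB3 and PFKFB4 make fructose 2,6-bisphosphate, its activator. All 5 genes fell in H9 (background 34.3%). PFKL stood at 176 and 182 CPM with eIF2A shRNA against 238 and 242 CPM with control shRNA (-0.42 ± 0.035, adjusted p = 7e-13; -0.09 with the trend removed, adjusted p = 0.025), and PFKM at 105 and 99.5 CPM against 122 and 124 CPM (-0.26 ± 0.043). PFKP, at 179 and 172 CPM against 189 and 203 CPM, fell by 0.16 ± 0.039 (adjusted p = 0.00049), whereas removal of the trend gave 0.15 ± 0.038, called higher (adjusted p = 0.00079). The bisphosphatase-kinases moved more: PFKFB3 stood at 41.2 and 41.8 CPM against 62.9 and 62.1 CPM (-0.59 ± 0.052), and PFKFB4 at 30.9 and 31.9 CPM against 48.5 and 47.7 CPM (-0.62 ± 0.06). With the trend removed these were -0.53 and -0.43, still called. In HEK293T only PFKL and PFKP of the 5 were called (background 28.7% in either direction). PFKL fell to 211 and 217 CPM with eIF2A siRNA, against 274 and 262 CPM with control siRNA (-0.32 ± 0.034, adjusted p = 3.9e-09), and PFKP stood at 188 and 180 CPM against 195 and 207 CPM (-0.13 ± 0.038, adjusted p = 0.0086). The PFKP call was lost without eIF2A siRNA replicate 2 (-0.10, adjusted p = 0.17), without control siRNA replicate 2 (-0.08, adjusted p = 0.1) and with the trend removed (-0.09, adjusted p = 0.057). PFKM, PFKFB3 and PFKFB4 lay between -0.01 and 0.06 in HEK293T, with overlapping libraries.

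Aldolases cleave fructose 1,6-bisphosphate and TPI1 interconverts the triose phosphates. None of the 3 genes was called in HEK293T, where ALDOA stood at 2769 and 2841 CPM with eIF2A siRNA and 2832 and 2806 CPM with control siRNA (-0.01 ± 0.028), and TPI1 at 2414 and 2426 CPM and 2430 and 2296 CPM (0.04 ± 0.03). All 3 fell in H9 (background 34.3%). ALDOA stood at 1640 and 1660 CPM with eIF2A shRNA against 2454 and 2468 CPM with control shRNA (-0.58 ± 0.028, adjusted p = 6.3e-19), and TPI1 at 1638 and 1592 CPM against 2252 and 2325 CPM (-0.50 ± 0.03, adjusted p = 1.7e-16). ALDOC, the brain-type aldolase, stood at 66.3 and 67.9 CPM against 103 and 107 CPM (-0.65 ± 0.045, adjusted p = 1e-14). With the trend removed the H9 values were -0.08 for ALDOA, -0.11 for TPI1 and -0.27 for ALDOC, all still called lower (adjusted p = 0.017, 0.0025 and 2.9e-06).

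The payoff steps run through GAPDH, PGK1, PGAM1, the enolases ENO1 and ENO2, and pyruvate kinase PKM. In H9, 5 of the 6 fell (background 34.3%). GAPDH, the most abundant per length of the 33 genes in every group, stood at 9328 and 9270 CPM with eIF2A shRNA against 13283 and 13469 CPM with control shRNA (-0.53 ± 0.026, adjusted p = 1.9e-18), but at -0.02 ± 0.027 with the trend removed (adjusted p = 0.58). ENO1 stood at 3698 and 3662 CPM against 5247 and 5348 CPM (-0.53 ± 0.027; -0.20 with the trend removed, adjusted p = 1e-07), and PGAM1 at 505 and 500 CPM against 669 and 671 CPM (-0.42 ± 0.03; -0.18 with the trend removed). PKM stood at 1180 and 1194 CPM against 1414 and 1420 CPM (-0.26 ± 0.031, adjusted p = 3.4e-09), with a trend-removed value of 0.06 ± 0.031 (adjusted p = 0.11). PGK1, at 605 and 601 CPM against 750 and 755 CPM, fell by 0.32 ± 0.029. Its trend-removed value was further from 0, at -1.14 ± 0.029 (adjusted p = 4.3e-27), with a matched transcript of 4887 bases and 43.3% GC. That transcript is long beside the median of 2971 bases over all genes tested, so the trend-removed value is less certain. ENO2, the neuronal enolase, was not called, at 280 and 280 CPM against 268 and 271 CPM (0.06 ± 0.035, adjusted p = 0.15), but was called higher with the trend removed (0.32, adjusted p = 3.7e-10) and lower with DESeq2's size factors (-0.10).

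In HEK293T 5 of these 6 genes were not called, with log2 fold changes between -0.04 and 0.03. Without control siRNA replicate 1, PKM was called (-0.09, adjusted p = 0.0049), as were TPI1 (0.08, adjusted p = 0.017), PFKM (0.11, adjusted p = 0.027) and HK1 (-0.10, adjusted p = 0.018) of the earlier steps. GAPDH stood at 6429 and 6543 CPM with eIF2A siRNA and 6706 and 6581 CPM with control siRNA, and PGK1 at 996 and 996 CPM and 990 and 997 CPM. ENO2 fell, at 24 and 26.9 CPM against 30.1 and 30.3 CPM (-0.25 ± 0.056, adjusted p = 0.00075), a call that was lost without eIF2A siRNA replicate 1 (-0.17, adjusted p = 0.065). Summed over the 15 enzymes that carry glucose to pyruvate, the level was 23861 and 24091 CPM in HEK293T with eIF2A siRNA and 24588 and 24474 CPM with control siRNA. In H9 the sum was 20445 and 20321 CPM with eIF2A shRNA and 28309 and 28743 CPM with control shRNA. The H9 knockdown libraries thus lay below both controls, and the enzymes took 2.22 and 2.19% of gene counts there against 2.63 and 2.65%. Unlike these shares, the sums are TMM-scaled, with factors of 1.085 and 1.08 with eIF2A shRNA and 0.931 and 0.923 with control shRNA. GAPDH, ENO1, TPI1, PKM and ALDOA made up 84.8 to 87.1% of the enzyme counts in every library. With the trend removed their H9 log2 fold changes were -0.02, -0.20, -0.11, 0.06 and -0.08, and the sum was not recomputed.

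**Figure D3:**
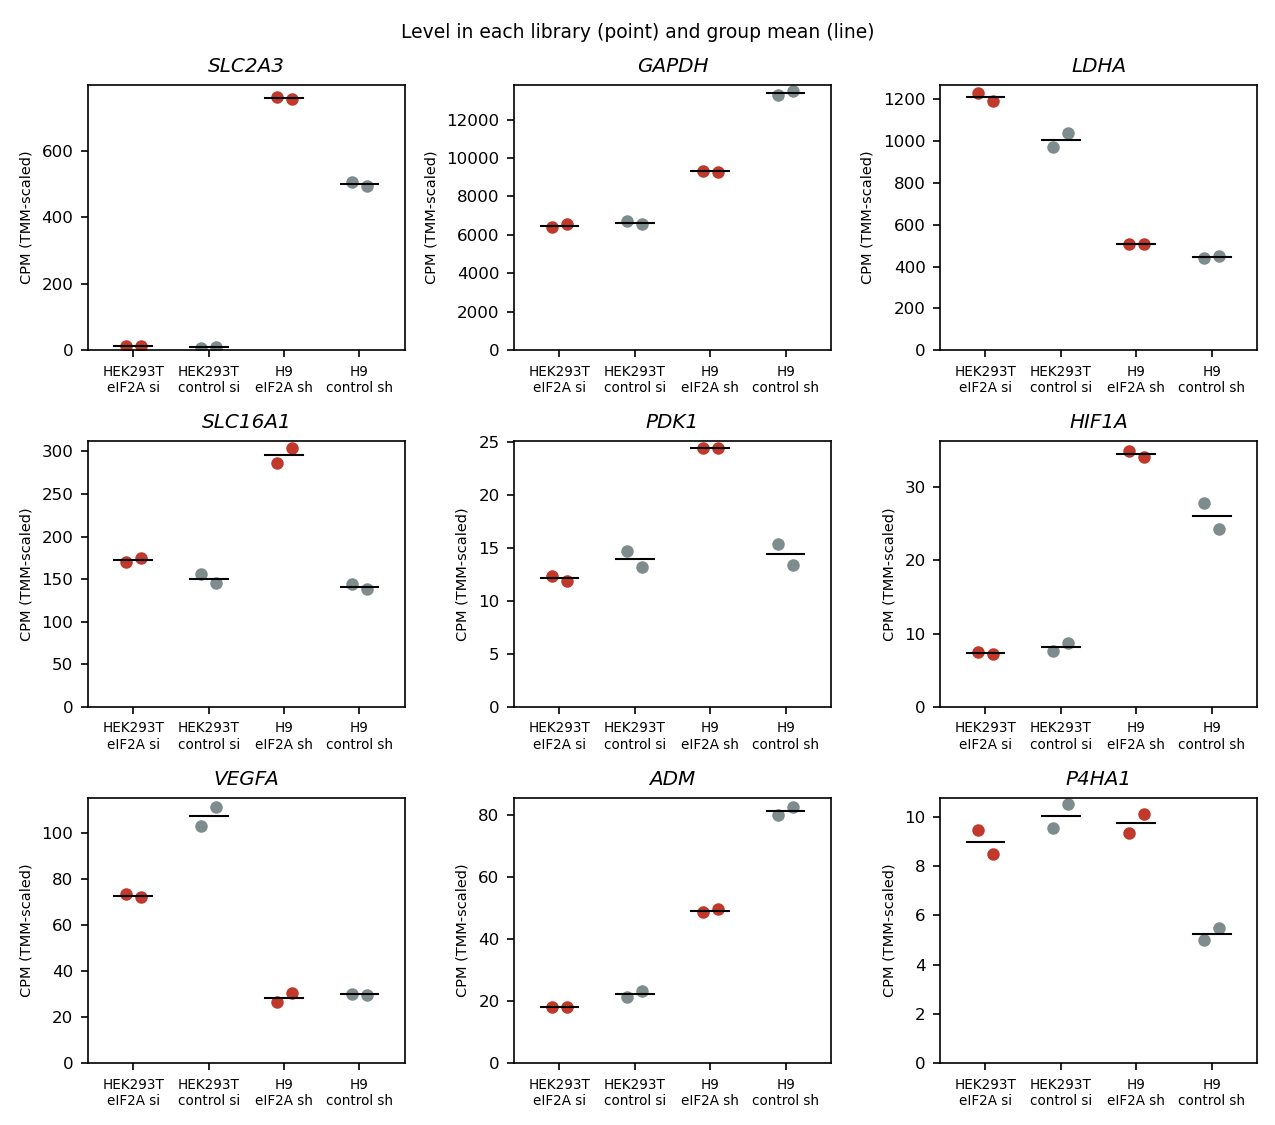
CPM with TMM scaling (y axis, from 0) in each library (points) and group means (lines) for 9 of the genes in HEK293T with eIF2A siRNA or control siRNA, both with arsenite, and in H9 with eIF2A shRNA or control shRNA. GAPDH and ADM sit lower, and SLC2A3, LDHA, SLC16A1, PDK1, HIF1A and P4HA1 higher, in H9 with eIF2A shRNA than in its controls, whereas VEGFA differs in HEK293T, at 73.4 and 72 against 103 and 111 CPM.

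LDHA and LDHB encode the subunits of lactate dehydrogenase, SLC16A1 (MCT1) and SLC16A3 (MCT4) carry lactate across the membrane, and PDK1 inhibits pyruvate dehydrogenase. As measured, 3 of the 5 were called higher in HEK293T (background 14.1%) and none lower (background 14.7%). In H9 4 were called higher (background 37%) and 1 lower (background 34.3%). The trend-removed fit called 2 higher and 1 lower in each line (background 14.9% and 12.8% in HEK293T, 22% and 27.3% in H9). DESeq2's size factors gave 2 higher and 1 lower in H9, with a median of 0.03, beside 4553 higher and 6124 lower of all 14565 genes. LDHA stood at 1231 and 1192 CPM with eIF2A siRNA against 972 and 1041 CPM with control siRNA (0.27 ± 0.032, adjusted p = 4.9e-08). In H9 it stood at 507 and 508 CPM with eIF2A shRNA against 440 and 450 CPM with control shRNA (0.19 ± 0.033, adjusted p = 5e-06), a direction that turned with the trend removed (-0.40 ± 0.032, adjusted p = 1.7e-13). LDHA was not called in H9 with DESeq2's size factors. LDHB stood at 396 and 371 CPM with eIF2A siRNA against 345 and 364 CPM (0.11 ± 0.034, adjusted p = 0.0095), a call lost without eIF2A siRNA replicate 1 (0.07, adjusted p = 0.29) and with the trend removed (0.04, adjusted p = 0.34). In H9 LDHB stood at 552 and 544 CPM against 490 and 494 CPM (0.16 ± 0.034, adjusted p = 1e-04), with -0.02 when the trend was removed and 0.00 with DESeq2's size factors.

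SLC16A1 had the largest rise of the 33 genes in H9. It stood at 287 and 304 CPM with eIF2A shRNA against 144 and 138 CPM with control shRNA, and rose by 1.07 ± 0.039 on the log2 scale (adjusted p = 4.4e-22). Removal of the trend left 0.31 ± 0.038 (adjusted p = 9.6e-09). In HEK293T it stood at 170 and 175 CPM with eIF2A siRNA against 156 and 145 CPM with control siRNA (0.20 ± 0.039, adjusted p = 0.00014). PDK1 rose in H9, at 24.5 and 24.5 CPM against 15.4 and 13.4 CPM (0.76 ± 0.083, adjusted p = 4.1e-10), and stood at 0.90 ± 0.082 with the trend removed. Its matched transcript is shorter than others of the gene, so that value is less certain. In HEK293T PDK1 stood at 12.4 and 11.9 CPM against 14.7 and 13.2 CPM and was not called (-0.20 ± 0.087, adjusted p = 0.094). It was called lower with the trend removed (-0.24, adjusted p = 0.036) and without control siRNA replicate 2 (-0.28, adjusted p = 0.044). SLC16A3 was scarce throughout, at 1.39 and 1.42 CPM with eIF2A siRNA and 1.39 and 0.911 CPM with control siRNA in HEK293T, where it was not called. It stood at 2.36 and 2.04 CPM in H9 with eIF2A shRNA against 4.57 and 2.62 CPM with control shRNA (-0.71 ± 0.22, adjusted p = 0.0049), a call lost without control shRNA replicate 1 (-0.25, adjusted p = 0.44) and with the trend removed (-0.28, adjusted p = 0.32).

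HIF1A encodes the oxygen-regulated HIF subunit, and EGLN1 (PHD2) and EGLN3 (PHD3) encode hydroxylases that mark it for destruction. In H9 the HIF1A transcript stood at 34.9 and 34.1 CPM with eIF2A shRNA against 27.8 and 24.3 CPM with control shRNA (0.40 ± 0.071, adjusted p = 5.2e-06). With the trend removed the direction turned, at -0.48 ± 0.068 (adjusted p = 1.8e-07). EGLN1 stood at 8.47 and 8.52 CPM against 5.32 and 5.43 CPM (0.66 ± 0.13, adjusted p = 2.1e-05), with -0.22 when the trend was removed (adjusted p = 0.17). EGLN3 was not called in H9, at 20.2 and 17.6 CPM against 17.4 and 19.5 CPM (0.03 ± 0.085, adjusted p = 0.74), and was called lower with the trend removed (-0.32, adjusted p = 0.0015). In HEK293T EGLN3, itself a HIF target, rose to 19.2 and 19.2 CPM with eIF2A siRNA, against 14.4 and 16.3 CPM with control siRNA (0.31 ± 0.081, adjusted p = 0.0034). HIF1A stood there at 7.55 and 7.19 CPM against 7.58 and 8.7 CPM (-0.16 ± 0.11, adjusted p = 0.3), and EGLN1 at 16.2 and 18.5 CPM against 16.3 and 17.9 CPM. HIF activity is set mainly at the level of protein, which was not measured here.

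The remaining genes are induced by low oxygen in many cells: VEGFA, an angiogenic growth factor, CA9, a membrane carbonic anhydrase, BNIP3, a mitophagy receptor, ADM, a vasodilator peptide, NDRG1, a stress-response gene, and P4HA1, a collagen prolyl hydroxylase. In HEK293T 3 of the 6 fell (background 14.7%) and none rose (background 14.1%). VEGFA had the largest fall of the called genes there, at 73.4 and 72 CPM with eIF2A siRNA against 103 and 111 CPM with control siRNA (-0.56 ± 0.047, adjusted p = 3.6e-11; 67.9% of the control level). ADM stood at 18.3 and 18.3 CPM against 21.4 and 23.4 CPM (-0.30 ± 0.067, adjusted p = 0.00066), and NDRG1 at 204 and 196 CPM against 230 and 240 CPM (-0.23 ± 0.036, adjusted p = 4.7e-06). The libraries of the groups did not overlap for any of these, nor for BNIP3 and P4HA1, which were not called. The share of all genes without overlap was not counted. BNIP3, at 40.9 and 40.8 CPM against 42.9 and 43.1 CPM, was not called (-0.07 ± 0.053, adjusted p = 0.32) but was with the trend removed (-0.14, adjusted p = 0.04). P4HA1 was not called, at 9.45 and 8.5 CPM against 9.54 and 10.5 CPM (-0.16 ± 0.1, adjusted p = 0.24). CA9 had 3 and 1 counts with eIF2A siRNA and 0 and 0 with control siRNA, too few for a fold.

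In H9 the same genes went both ways. P4HA1 stood at 9.35 and 10.1 CPM with eIF2A shRNA against 4.99 and 5.48 CPM with control shRNA (0.90 ± 0.12, adjusted p = 7.1e-08), but at 0.15 ± 0.13 with the trend removed (adjusted p = 0.34). ADM stood at 48.7 and 49.7 CPM against 80.1 and 82.5 CPM (-0.72 ± 0.05, adjusted p = 5.9e-15; -0.31 with the trend removed, adjusted p = 1.5e-06). BNIP3 stood at 21.5 and 20.7 CPM against 27.2 and 25.1 CPM (-0.31 ± 0.069, adjusted p = 0.00013), with a larger fall once the trend was removed (-0.82 ± 0.068). CA9 was near the limit of detection, at 1.04 and 0.975 CPM against 2 and 1.88 CPM (-0.94 ± 0.28, adjusted p = 0.0039; -0.44 with the trend removed, adjusted p = 0.22). VEGFA was not called, at 26.7 and 30.3 CPM against 30.2 and 29.6 CPM (-0.07 ± 0.067, adjusted p = 0.35), whereas its trend-removed value was 0.47 (adjusted p = 1.1e-07) and rests on a matched transcript of 784 bases, shorter than others of the gene. With DESeq2's size factors 4 of these 6 genes, VEGFA among them, were called lower in H9 and 1 higher. In that setting 6124 of all 14565 genes were called lower and 4553 higher. NDRG1 stood at 1.78 and 1.91 CPM against 1.73 and 1.53 CPM (0.17 ± 0.21, adjusted p = 0.51).

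The balance between isoform genes of one step moved in some families, measured as each gene's share of the family's CPM per kilobase. SLC2A3 made up 57.9 and 57.9% of the 2 glucose transporters in H9 with eIF2A shRNA against 44 and 43.4% with control shRNA. In HEK293T its share was 9.93 and 10.1% with eIF2A siRNA against 6.81 and 7.61% with control siRNA. HK2 took 17.9 and 17.4% of the 2 hexokinases in H9 with eIF2A shRNA against 13 and 12.5%, and ENO2 took 5.28 and 5.33% of the 2 enolases against 3.61 and 3.59%. In each of these the knockdown libraries lay outside the range of the controls. With 2 libraries a group, small shifts separated too, such as HK2 in HEK293T, at 14 and 14.4% with eIF2A siRNA against 13.7 and 12.7%. How often shares of other gene families separate was not counted. With the trend removed, the H9 log2 fold changes were 0.07 for SLC2A3 and -0.11 for SLC2A1, against 0.60 and -0.22 as measured. HK2 and HK1 then stood at 0.00 and -0.28, against 0.27 and -0.28, and ENO2 and ENO1 at 0.32 and -0.20, against 0.06 and -0.53. The shares themselves were not recomputed with the trend removed. LDHB took 62 and 61.6% of the lactate dehydrogenase subunits in H9 with eIF2A shRNA and 62.6 and 62.2% with control shRNA, although LDHA and LDHB stood apart with the trend removed, at -0.40 and -0.02. In HEK293T the LDHB share was 32.5 and 31.8% with eIF2A siRNA and 34.7 and 34.4% with control siRNA. PFKL took 40.5 and 41.6% of the phosphofructokinase subunits in HEK293T with eIF2A siRNA against 46.1 and 44.7% with control siRNA.

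**Figure D4:**
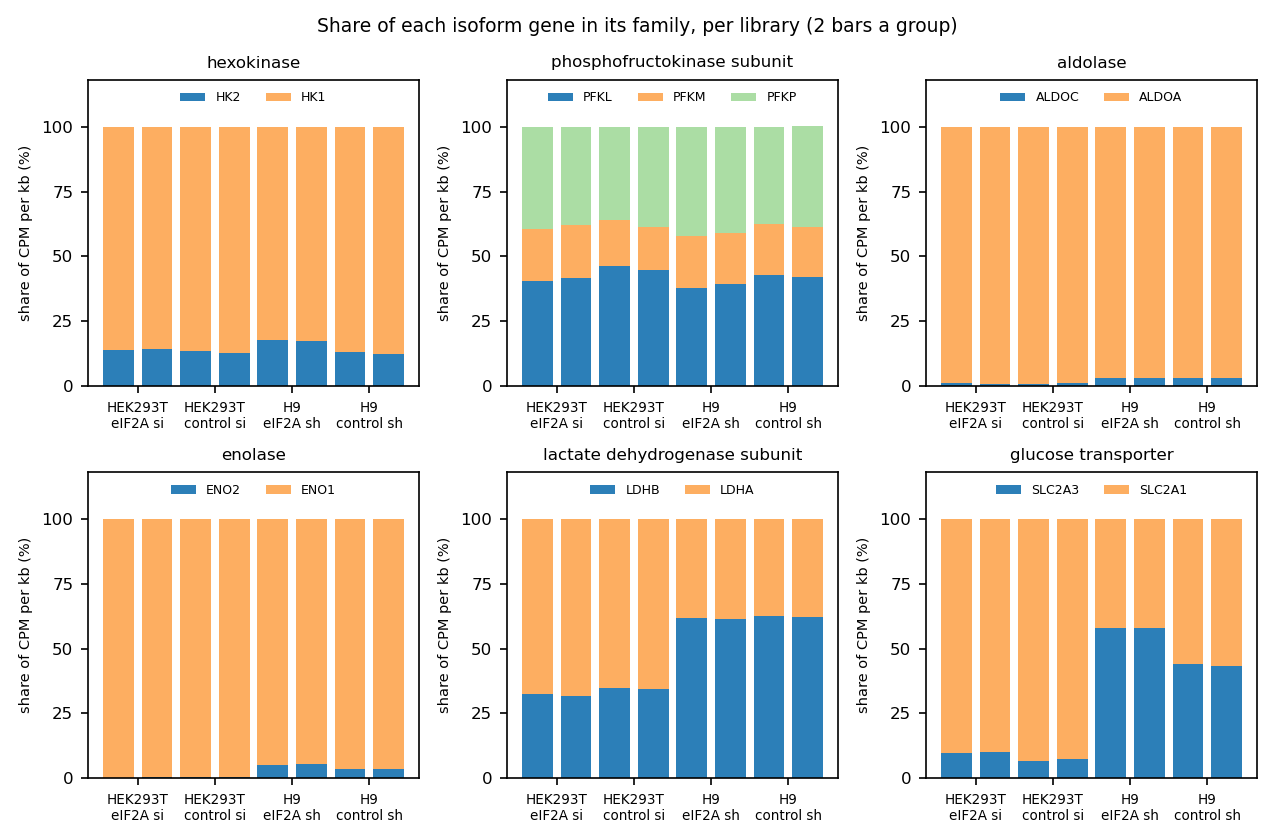
Share in percent (y axis) of each isoform gene in its family's summed CPM per kilobase, 1 stacked bar a library, for HEK293T with eIF2A siRNA or control siRNA (both with arsenite) and H9 with eIF2A shRNA or control shRNA. SLC2A3 takes 57.9 and 57.9% of the transporter bars in H9 with eIF2A shRNA against 44 and 43.4% in its controls, whereas the aldolase bars are at least 96.7% ALDOA throughout.

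The effect of the knockdown differed between the lines for most of the 33 genes. In the test of the difference itself, H9 minus HEK293T, 8 genes were called higher (background 31.1%) and 19 lower (background 27%), so that 81.8% were called against 58.1% of all genes tested; CA9, with 0 counts in the HEK293T controls, is among the 19. The median difference was -0.22 on the log2 scale, against 0.05 over all genes tested. The differences that were largest upward were P4HA1 (1.06 ± 0.16, adjusted p = 6.4e-07), PDK1 (0.96 ± 0.12, adjusted p = 2e-08) and SLC16A1 (0.87 ± 0.055, adjusted p = 3.5e-15). All 3 genes of the aldolase and triose phosphate step were lower, ALDOC by 0.63 ± 0.07, ALDOA by 0.57 ± 0.039 and TPI1 by 0.54 ± 0.043. With the trend removed the differences were -0.28 for ALDOC, -0.10 for ALDOA, -0.14 for TPI1 and 0.15 for SLC16A1. VEGFA, lower in HEK293T and not called in H9, differed by 0.49 ± 0.082 (adjusted p = 3.5e-06), and by 1.05 with the trend removed. SLC2A3, LDHA and LDHB, which rose in both lines as measured, had differences of 0.13, -0.08 and 0.04 that were not called (adjusted p = 0.2, 0.15 and 0.48), although with the trend removed the SLC2A3 difference was -0.35 (adjusted p = 0.00055) and the LDHA difference -0.61 (adjusted p = 3.5e-14). In the trend-removed fit 7 genes were higher (background 18.6%) and 17 lower (background 24.1%), and the P4HA1 difference was 0.36 (adjusted p = 0.064). The lines also differ in arsenite and in the kind of interfering RNA, which cannot be told apart here from the line.

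The control groups differed for most of the genes when H9 with control shRNA was set against arsenite-treated HEK293T with control siRNA. Of the 33 genes, 16 were higher in H9 (background 42.3%), 14 lower (background 41.2%) and 3 not called, so that 90.9% were called against 83.5% of all genes tested. Line, arsenite and kind of interfering RNA cannot be told apart in this contrast, and it shares its libraries with the contrasts above. The transporters stood out, with SLC2A3 58.3-fold and SLC2A1 5.87-fold higher in H9. ENO2 was 8.92-fold, ADM 3.61-fold, HIF1A 3.18-fold and GAPDH 2.01-fold higher in H9. CA9 had 81 counts over both H9 controls and 0 over both HEK293T controls, and so was at least 35.5-fold higher against a floor of 3 counts over the group. NDRG1 was at 0.696% of its HEK293T level, VEGFA at 27.9%, EGLN1 at 31.2%, LDHA at 44.2% and PKM at 45.9%, all called. PFKP, TPI1 and PDK1 were not called, with log2 fold changes of -0.04, -0.05 and 0.06. Once the trend was removed, PFKP (-0.50) and TPI1 (-0.24) were called lower, PFKM (0.05) and SLC16A1 (-0.02) were no longer called, and GAPDH stood at 0.61 instead of 1.01.

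Per kilobase of transcript, the order of levels was headed in every group by GAPDH, at 6898 CPM per kilobase in H9 with eIF2A shRNA and 9923 with control shRNA, and at 4811 in HEK293T with eIF2A siRNA and 4928 with control siRNA. ENO1 came next, at 2066, 2974, 3258 and 3322 in the same 4 groups, followed by ALDOA at 1065, 1588, 1809 and 1819 and by TPI1 at 1018, 1442, 1525 and 1489. ALDOA and TPI1 lay close together in H9, with libraries between 1000 and 1070 with eIF2A shRNA and between 1420 and 1590 with control shRNA. At the low end, CA9 and SLC16A3 were under 2.2 CPM per kilobase in every library, and EGLN1 under 2.7. In H9 SLC2A3 stood at 194 CPM per kilobase with eIF2A shRNA and SLC2A1 at 141, whereas with control shRNA SLC2A3 stood at 128 and SLC2A1 at 165, so that the order of the 2 transporters differed between the groups. These levels include the trend over GC content and length, and the order was not recomputed without it.

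Other genes of these pathways were read from lists of related enzymes and regulators. Of 34 other glycolytic isoforms and branch enzymes, 26 were tested; in HEK293T 5 were higher and 7 lower with eIF2A siRNA, and in H9 9 were higher and 11 lower with eIF2A shRNA, or 4 and 7 with the trend removed. For all genes tested these shares were 14.1% higher and 14.7% lower in HEK293T and 37% higher and 34.3% lower in H9, or 22% and 27.3% in H9 with the trend removed, and the counts of the lists that follow stand beside the same shares. Scarce transcripts changed in H9: SLC16A7, a monocarboxylate transporter, averaged 0.743 CPM with eIF2A shRNA and 0.193 CPM with control shRNA (log2 fold change 1.94 ± 0.52), and FBP1, the gluconeogenic bisphosphatase, 3.59 and 10.9 CPM (-1.59 ± 0.14). In HEK293T FBP1 averaged 0.719 CPM with eIF2A siRNA and 0.31 CPM with control siRNA (1.20 ± 0.41), and PGAM2, the muscle mutase, 1.2 and 0.718 CPM (0.78 ± 0.3). PKLR was called lower there at 0.0173 and 0.166 CPM, too few counts for a fold.

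Pyruvate entry into mitochondria was covered by 12 tested genes of 13, of which 1 was higher and 1 lower in HEK293T with eIF2A siRNA: PDK2, a kinase of pyruvate dehydrogenase, at 0.15 ± 0.052 and PC, pyruvate carboxylase, at -0.31 ± 0.05. Removing the trend gave 1 higher and 3 lower there. In H9 5 were higher and 4 lower with eIF2A shRNA, but with the trend removed 1 was higher and 8 lower. PDP1, the pyruvate dehydrogenase phosphatase, rose by 1.07 ± 0.16 as measured and stood at 0.18 with the trend removed (adjusted p = 0.39). PDHX, a component of the complex, rose by 1.05 ± 0.11, or 0.45 with the trend removed, and DLD, its dehydrogenase, by 0.87 ± 0.085, or 0.00.

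The pentose phosphate pathway branches off at glucose 6-phosphate and makes NADPH. In HEK293T 1 of 8 genes was higher with eIF2A siRNA and 3 were lower, among them PGD by 0.26 ± 0.032 and TALDO1 by 0.17 ± 0.035, while RPIA rose by 0.19 ± 0.061, a call lost with the trend removed (0.14, adjusted p = 0.073). In H9 6 were lower and 1 higher with eIF2A shRNA, with a median of -0.35, or 4 lower and 1 higher with the trend removed, with a median of -0.05. PGLS had a log2 fold change of -0.57 ± 0.041 there and TALDO1 of -0.51 ± 0.036, against trend-removed values of 0.05 and -0.03.

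Among 16 components of the HIF pathway, all tested, 4 were higher and 1 lower in HEK293T with eIF2A siRNA, and 6 were higher and 8 lower in H9 with eIF2A shRNA. After removal of the trend these counts were 6 and 1 in HEK293T and 4 and 8 in H9. In HEK293T RBX1 and ELOC, subunits of the ubiquitin ligase that recognises hydroxylated HIF, rose by 0.49 ± 0.048 and 0.46 ± 0.049, and EPAS1, the alternative HIF alpha subunit, fell by 0.25 ± 0.077. In H9 the ligase subunits moved apart: the scaffold CUL2 rose by 1.46 ± 0.12, averaging 14.5 CPM with eIF2A shRNA and 5.25 CPM with control shRNA, whereas RBX1, ELOB and ELOC fell by 0.57 ± 0.049, 0.58 ± 0.038 and 0.30 ± 0.053. EP300, a coactivator of HIF, rose by 0.75 ± 0.042 and SIAH1, a ligase acting on the EGLN enzymes, by 0.61 ± 0.094. With the trend removed CUL2 stood at 0.54, EP300 at 0.43 and SIAH1 at -0.06 (adjusted p = 0.00031, 3.2e-11 and 0.64). RBX1 then stood at -0.52 and ELOC at -0.88, both called, and ELOB at 0.04 (adjusted p = 0.41).

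Of 34 other hypoxia-inducible genes, 33 were tested; 4 were higher and 6 lower in HEK293T with eIF2A siRNA, and 16 higher and 8 lower in H9 with eIF2A shRNA, or 10 and 10 with the trend removed. In HEK293T LOX, a collagen crosslinker, fell by 0.59 ± 0.11, PLOD2, a lysyl hydroxylase of collagen, fell by 0.49 ± 0.12, and WSB1, a substrate receptor of a ubiquitin ligase, rose by 0.38 ± 0.062. In H9 RORA, a nuclear receptor, averaged 2.94 CPM with eIF2A shRNA and 0.431 CPM with control shRNA (2.75 ± 0.33), PLOD2 4.53 and 1.23 CPM (1.88 ± 0.21) and TFRC, the transferrin receptor, 67.2 and 20 CPM (1.75 ± 0.06). These remained called with the trend removed, at 2.40, 1.02 and 0.88. PLOD2 differed between the lines by 2.38 ± 0.25 in the test of the difference (adjusted p = 3.1e-10). LOX was called higher in H9 at 0.743 and 0.311 CPM (1.21 ± 0.47, adjusted p = 0.021), a call lost with the trend removed (0.24, adjusted p = 0.72).

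As for the state of the cells, the arsenite-responsive HMOX1, heme oxygenase, averaged 196 CPM in HEK293T with eIF2A siRNA and 124 CPM with control siRNA (0.67 ± 0.037), and 101 and 146 CPM in H9 with eIF2A shRNA and control shRNA (-0.54 ± 0.039). The 6 arsenite-responsive genes, of which 5 were tested, summed to 702 and 697 CPM with eIF2A siRNA against 733 and 743 CPM with control siRNA, and to 254 and 253 CPM with eIF2A shRNA against 326 and 327 CPM with control shRNA. Of the 5 tested in HEK293T, only HMOX1 was called higher (background 14.1%) and 2 were called lower (background 14.7%). In H9 1 was called higher (background 37%) and 3 lower (background 34.3%). Fibroblast markers summed to 1130 and 1140 CPM in H9 with eIF2A shRNA and 1310 and 1320 CPM with control shRNA, with DCN and LUM under 0.1 CPM. Trophoblast markers summed to 20.1 and 20.7 CPM and 26.9 and 27.4 CPM, with HAND1 at 0 in H9. The part of these in the changes of the 33 genes was not tested.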

How the data were processed

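TRIzol extraction and a stranded Illumina kit for poly(A) RNA are stated per the labels' protocols. The submitters' processing notes name cutadapt, STAR 2.5.2b and the build hg19. The authors deposited raw read counts for each RefSeq accession, with no normalization. Which program counted the reads, with which strand setting and annotation, is not given in the sources used here. Opposite-strand partners, found for 16 of the 33 genes, therefore cannot be told apart. Reads assigned to no gene (14.953 to 20.836%) stayed out of library sizes. Multiply aligned reads (4.106 to 4.542%) were listed apart from the gene counts, so genes with pseudogenes are uncertain: 16 of the 33 have some by name, GAPDH 62, BNIP3 39, PGAM1 13 and LDHA 6. Names came from a RefSeq table for 18888 accessions and from GENCODE for 223, with 194 unnamed; length and GC content were matched for 19066.

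Counts were fitted with edgeR 4.0.16 in R 4.3.3: filterByExpr, TMM scaling, 4 group means over all 8 libraries (4 residual degrees of freedom), quasi-likelihood F test (robust, two-sided) and Benjamini-Hochberg adjustment over all 14565 genes. The contrasts set knockdown against control within each line, these effects against each other (H9 minus HEK293T), and the H9 control against the HEK293T control. CPM are TMM-scaled, and SE comes from the F statistic. The alternatives include DESeq2 1.42.0, limma 3.58.1 (voom) and removal of each library's GC and length trend (splines with 5 degrees of freedom each). Named genes are all 33, EIF2A and, from each pathway list and knockdown contrast, up to 3 called genes with the largest change; ELOC, ELOB, RBX1 and LOX in H9, TALDO1 in HEK293T, HMOX1, SLC2A14, and the single cell type markers were chosen after their values were seen, and some genes under this rule are not reported here. The 33 genes and the lists were chosen with earlier results of these data known. No duplicate libraries were seen: replicate chi-square per degree of freedom was 1.8 (HEK293T eIF2A siRNA), 4.91 (HEK293T control siRNA), 1.35 (H9 eIF2A shRNA) and 1.51 (H9 control shRNA). The HEK293T controls thus differed from each other more than the libraries of the other groups did. Since all groups share 1 estimate of the spread, SE and adjusted p in HEK293T may be too small. Only the main edgeR fit was tested on simulated counts, which had a fixed spread and no trend of fold change over GC content or length. The alternatives were not tested in this way. The study's ribosome profiling was not analysed here.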

Additional observations from a re-analysis of the deposited data

Results flagged for a closer look

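For 26 of the 33 genes the log2 fold change on eIF2A knockdown differed between H9 and arsenite-treated HEK293T cells in edgeR's test of the difference itself (H9 minus HEK293T, adjusted p under 0.05, 4 residual degrees of freedom), beside 58.1% of all genes tested. In glucose uptake and the first steps the differences were -0.18 for SLC2A1, -0.21 for HK1, 0.20 for HK2 and -0.24 for GPI. Among the phosphofructokinase genes they were -0.32 for PFKM, -0.58 for PFKFB3 and -0.60 for PFKFB4. The aldolase and triose phosphate genes gave -0.57 for ALDOA, -0.63 for ALDOC and -0.54 for TPI1. The payoff steps gave -0.49 for GAPDH, -0.32 for PGK1, -0.44 for PGAM1, -0.50 for ENO1, 0.30 for ENO2 and -0.22 for PKM. For lactate and pyruvate handling the differences were 0.87 for SLC16A1, -1.04 for SLC16A3 and 0.96 for PDK1. HIF1A, EGLN1 and EGLN3 gave 0.56, 0.65 and -0.28. Of the other hypoxia-inducible genes, VEGFA gave 0.49, BNIP3 -0.24, ADM -0.42 and P4HA1 1.06. With the GC and length trend removed, the HIF1A difference turned to -0.31 (called lower, adjusted p = 0.042), and those of EGLN1 (-0.25), GAPDH (0.00), PKM (0.06), HK2 (-0.09), SLC2A1 (-0.08), SLC16A3 (-0.68), ADM (-0.04) and P4HA1 (0.36) were not called. CA9 also passed but is left out, since it had 0 counts in the HEK293T controls. Line, arsenite and kind of interfering RNA cannot be told apart in these differences.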

How the results depend on the processing

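Under 19 alternatives, the counts of the 33 genes called in each direction stayed within 1.5 times the reported ones, except that 5 genes, not 9, were called higher in H9 with the GC and length trend removed, with or without the replicate block. That alternative turned these H9 log2 fold changes: PFKP 0.15, PKM 0.06, LDHA -0.40, LDHB -0.02, HIF1A -0.48, EGLN1 -0.22, EGLN3 -0.32 (-0.33 with the block) and VEGFA 0.47. It turned these differences between the lines: SLC2A3 -0.35 (-0.36 with the block), HK2 -0.09, PFKL 0.16 (0.17), PFKP 0.25 (0.24), GAPDH 0.00, PKM 0.06, HIF1A -0.31 and EGLN1 -0.25 (-0.26). DESeq2's size factors, which put the H9 median of all genes at -0.13 instead of 0.02 (DESeq2 called 4008 of all genes higher and 5566 lower), turned ENO2 (-0.10) and LDHB (0.00) in H9 and the LDHB difference (-0.12), and DESeq2 itself LDHB in H9 (0.00). Upper-quartile scaling turned PFKM between the lines' controls (-0.04). The cause was not tested.

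With 1 library left out, the lone library left is assumed to vary like the other groups. Genes called higher then numbered 4 to 7 in HEK293T and 9 in H9, and genes called lower 6 to 9 and 19 to 20. In the difference they numbered 7 to 8 higher and 17 to 19 lower, and between the controls of the lines 14 to 16 and 13 to 15. The difference between the lines was lost for EGLN3 without either HEK293T eIF2A siRNA library, HEK293T control siRNA replicate 1, H9 eIF2A shRNA replicate 2 or H9 control shRNA replicate 2 (-0.28 to -0.19, adjusted p 0.08 to 0.24). It was lost for BNIP3 without H9 eIF2A shRNA replicate 2 (-0.21) or H9 control shRNA replicate 1 (-0.18), for SLC16A3 without HEK293T control siRNA replicate 2 (-0.73) or H9 control shRNA replicate 1 (-0.58), and for HK2 without H9 eIF2A shRNA replicate 1 (0.17).

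Same-numbered libraries showed no shared deviation: their deviations correlated at -0.04 in HEK293T and 0.01 in H9 over 12957 genes. Whether the sets were handled as pairs is not stated in the labels, and these correlations cannot show it. With the set as a replicate block, 9 genes were higher and 20 lower in H9, 5 higher and 7 lower in HEK293T. Of all 14565 genes, that fit called 5342 higher and 4939 lower in H9, and 1899 higher and 1948 lower in HEK293T. The 2 libraries a group and 4 residual degrees of freedom limit the precision, and genes under about 5 CPM (CA9, SLC16A3, NDRG1 in H9) are the least certain.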
